A study of Homo sapiens with 12 samples.

Results

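CLC encodes galectin-10, the protein that forms Charcot-Leyden crystals in eosinophils and basophils, and it was examined here with its relatives of the galectin family. The list held 10 symbols, and 1 of them, CLC, had a symbol in the platform annotation used, out of 14884 gene symbols measured. LGALS1, LGALS2, LGALS3, LGALS4, LGALS8, LGALS9, LGALS12, LGALS13 and LGALS14, the other 9, were not matched to a probeset and were not analysed here, so the results below are those of CLC. CLC was chosen by its difference between photoconverted and non-photoconverted invasive cells, and the galectins were added by family name. That difference is therefore described below without a test.

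All groups came from H1299, an established line from a human lung carcinoma of the non-small cell type, which carried the photoconvertible fluorophore Dendra2 in every group. The groups were leader cells, which head the invading chains of a spheroid, follower cells, which trail them, and a pair of controls, photoconverted and non-photoconverted invasive cells. The study describes marking a chosen leader cell or group of follower cells by photoconversion before sorting. The labels of the leader and follower arrays do not state it. Cells were sorted at 10 per well with 3 wells per group, and RNA of each of the 12 wells was amplified and hybridised to an Affymetrix Human Gene 2.0 ST array. The controls were compared to find genes altered by photoconversion, and the sources used here do not give the share of leader cells in either. Nothing in the sources says whether wells of a group came from different cultures. The p-values therefore reflect the spread between these arrays, which may be technical, and their number limits the precision. The deposited values are log2 intensities that the authors normalized between arrays.

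Galectins are small lectins with a conserved carbohydrate recognition domain, and many of them bind galactose-containing glycans on glycoproteins at the cell surface and in the matrix. LGALS1 and LGALS3 are expressed widely, whereas LGALS13 and LGALS14 are placental genes that lie near CLC on chromosome 19. CLC is best known as a marker of eosinophils and is not a gene of lung epithelium. The factor GATA1 drives eosinophil development and binds short DNA motifs, so the promoter window of CLC is shown here with the matches to those motifs in capitals, on the strand of the gene (RefSeq, GRCh38.p14, chr19:39737980-39738279, minus strand, 250 bases before to 50 after the gene's start).
CLC promoter: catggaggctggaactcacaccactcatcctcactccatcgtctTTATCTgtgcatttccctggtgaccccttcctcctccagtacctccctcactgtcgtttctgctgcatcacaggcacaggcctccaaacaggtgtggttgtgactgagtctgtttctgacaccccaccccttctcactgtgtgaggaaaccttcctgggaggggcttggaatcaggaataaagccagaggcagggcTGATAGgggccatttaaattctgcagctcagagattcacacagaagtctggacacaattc

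The search on both strands covered AGATAA and AGATAG as well as their variants with a first T, which are TGATAA and TGATAG, and the window held 2 matches. TTATCT, the reverse complement of AGATAA, began 206 bases before the start, and TGATAG began 10 bases before it. Of 35116 promoter windows of the same length, 24.97% held at least 1 match and 6.08% held 2 or more. GATA1 itself was measured, and averaged, on the log2 scale, 3.23 ± 0.23 (SD, n = 3) for leader cells, 2.97 ± 0.075 (SD, n = 3) in follower cells, 3.22 ± 0.18 (SD, n = 3) in photoconverted cells and 3.18 ± 0.32 (SD, n = 3) in non-photoconverted cells. The GATA1 arrays of the photoconverted group, between 3.09 and 3.43, lay within the range of the non-photoconverted group, between 2.92 and 3.55.

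CLC was read by a single probeset, 16872248, and its level differed widely between arrays. In leader cells its log2 value was 2.73, 2.30 and 2.95 in replicates 1, 2 and 3. In follower cells it was 3.07, 2.59 and 2.70. The arrays of these groups overlapped. In photoconverted invasive cells it was 2.97, 4.97 and 4.93, so that replicates 2 and 3 stood above every other array and replicate 1 stood among the leader and follower arrays. In non-photoconverted invasive cells it was 1.90, 2.06 and 2.23, which were the 3 lowest readings of the 12. By group mean the order was photoconverted cells at 4.29 ± 1.14 (SD, n = 3), follower cells at 2.79 ± 0.25 (SD, n = 3), leader cells at 2.66 ± 0.33 (SD, n = 3) and non-photoconverted cells at 2.06 ± 0.17 (SD, n = 3). Among neighbours in this order, follower and leader arrays overlapped, and so did photoconverted and follower arrays through photoconverted replicate 1.

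**Figure D1:**
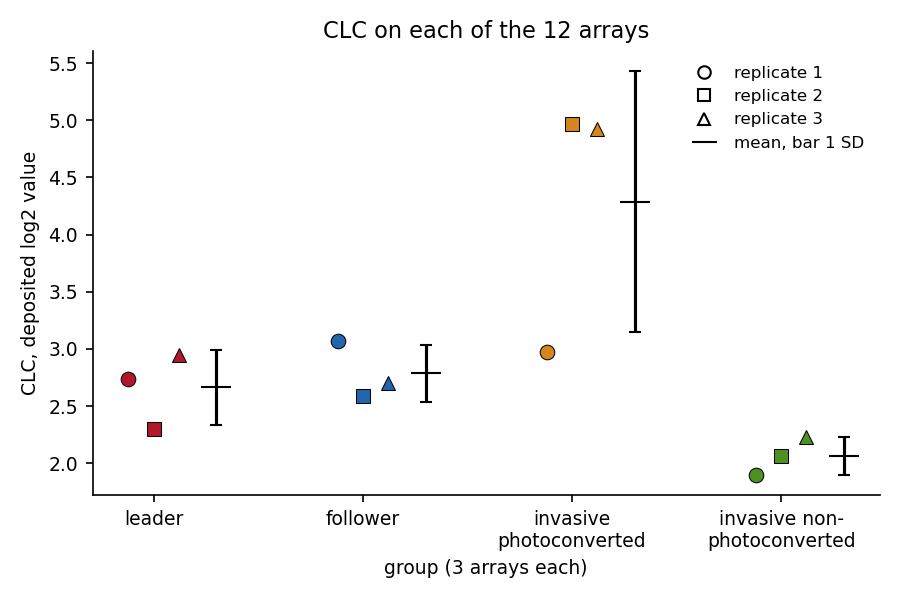
The vertical axis gives the deposited log2 value of CLC on each array, by group, with a symbol for each replicate and the mean with a bar of 1 SD (n = 3) beside it. Photoconverted replicates 2 and 3 lie near 4.97 and 4.93, photoconverted replicate 1 lies at 2.97, and the non-photoconverted arrays lie from 1.90 to 2.23.

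Against the other genes on the same array, CLC was a high reading on 2 arrays only. It stood at the percentiles 96.6 and 97.3 of all gene symbols on the arrays of photoconverted replicates 2 and 3, and at 56.0 on that of photoconverted replicate 1. On the non-photoconverted arrays it stood at 1.14, 6.37 and 7.34. Leader arrays placed it at 39.5, 9.29 and 53.8, and follower arrays at 64.4, 30.9 and 31.9. Array medians ran from 2.81 to 2.91, which the quantile normalization brings close to each other on any set of arrays. The arrays differed in how many genes read above a log2 value of 6, from 76 on follower replicate 3 to 332 on non-photoconverted replicate 2, and the mean correlation of an array with the other 11 ranged from 0.604 for follower replicate 3 to 0.714 for non-photoconverted replicate 3. The photoconverted arrays had 103, 186 and 143 such genes in replicates 1, 2 and 3 and mean correlations of 0.689, 0.713 and 0.697, and the part of these array differences in the CLC readings was not tested. Of 7 listed markers of this line 5 were measured, and by their means they stood at the percentiles 99.4 for VIM (vimentin) and 92.2, 73.3, 60.2 and 11.9 for the keratin genes KRT18, KRT8, KRT19 and KRT7.

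**Figure D2:**
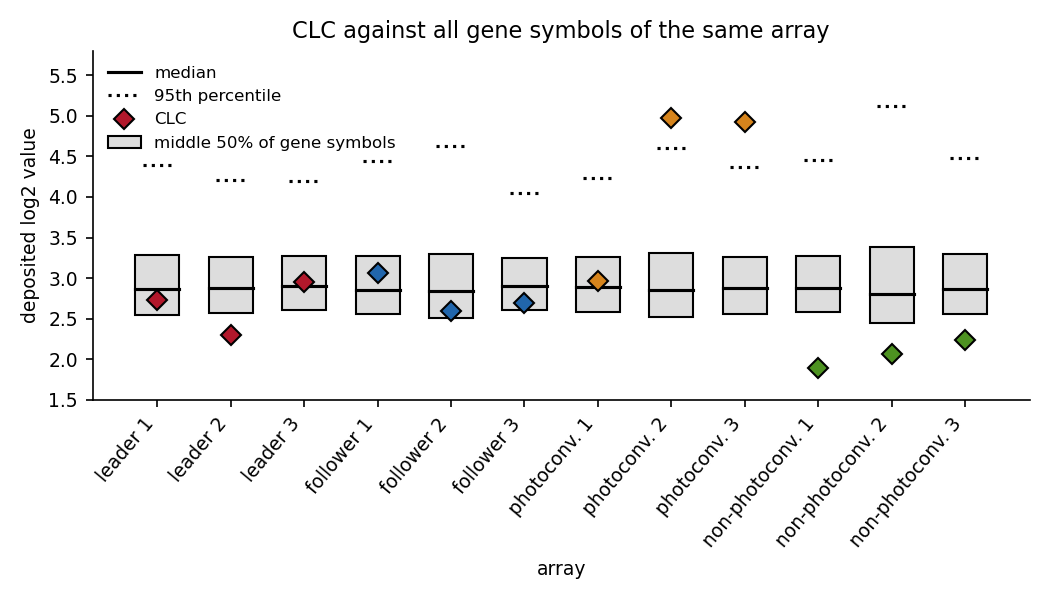
Diamonds give the log2 value of CLC on each array, coloured by group, over a box for the middle 50% of gene symbols on that array, with a line at the median and a dotted line at the 95th percentile. CLC exceeds the 95th percentile on the arrays of photoconverted replicates 2 and 3, and lies below the box on leader replicate 2 and on all 3 non-photoconverted arrays.

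The comparison of leader with follower cells was the main question of the study, and the difference between these groups was not used to choose CLC. The spread within them did enter the choice, because the groups share a spread in the fit that gave the threshold. CLC did not pass in the comparison of leader with follower cells. The mean in leader cells was lower by a log2 difference of -0.12 (standard error 0.44, 95% interval -1.09 to 0.84, adjusted p = 1.00 from limma over all gene symbols), and an exact permutation test of the 6 values gave a two-sided p = 0.70, where the smallest p this design allows is 0.10. At an unadjusted p under 0.05 there were 613 gene symbols, or 4.12% of those tested, and CLC was not among them. After adjustment 0 gene symbols passed, or 0.00%. The interval covers changes of about a log2 unit either way, because the fit over all 12 arrays shares its spread with the photoconverted group. Fitted on the 6 leader and follower arrays alone, the 95% interval was -0.69 to 0.44. The sign of the difference was not stable, since it became 0.056 when leader replicate 2 was omitted and 0.017 when follower replicate 1 was.

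Between photoconverted and non-photoconverted invasive cells, the comparison that chose it, CLC was higher in photoconverted cells by a log2 difference of 2.22, which is 4.67-fold on the deposited scale. Every photoconverted array lay above every non-photoconverted array, with 0.74 between the closest readings. Photoconverted arrays all lay above non-photoconverted arrays for 5.10% of gene symbols, which is given for scale only. Without photoconverted replicate 1 the photoconverted mean was 4.95 ± 0.032 (SD, n = 2) and the difference 2.88, or 7.38-fold, and without photoconverted replicate 2 or 3 it was 1.88 or 1.91. The difference of CLC ranked 4 among all gene symbols in that direction, after LINC00623 (2.72), EGR1 (2.53) and MIR626 (2.50) and before MIR489 (2.08) and MIR4525 (2.03). Its SD within the photoconverted group, 1.14, was larger than that of 98.0% of gene symbols, whose median SD there was 0.25. CLC had entered the list because it passed an adjusted threshold with photoconverted replicate 1 left out. MGA, with a difference of 2.06, was the gene symbol just inside that threshold and RPF1, at -1.35, the next outside it.

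Set against the invasive controls, leader and follower cells lay between them. These comparisons use the arrays that chose CLC, and they share control arrays with each other, so only values are given. CLC was lower in leader than in photoconverted cells by -1.63 on the log2 scale, and the groups did not overlap, though only 0.019 separated the highest leader from the lowest photoconverted array. Leader arrays all lay below photoconverted arrays for 4.53% of gene symbols. In follower cells CLC was lower than in photoconverted cells by -1.50, with overlapping arrays. Relative to non-photoconverted cells it was higher by 0.60 in leader cells and by 0.72 in follower cells, and neither group overlapped the non-photoconverted arrays. Leader arrays all lay above non-photoconverted arrays for 6.38% of gene symbols and follower arrays for 4.85%. The closest readings were 0.070 apart for leader cells and 0.36 apart for follower cells. Without photoconverted replicate 1 the differences from photoconverted cells were -2.29 for leader and -2.16 for follower cells.

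The gene symbols with a pattern most like that of CLC over the 12 arrays were LINC00623, CIDEC, ZNF71, PHF24 and SRM, with Pearson correlations of 0.917, 0.913, 0.892, 0.873 and 0.862 across the arrays. Spearman correlations were lower, from 0.580 for LINC00623 and SRM to 0.755 for CIDEC. Over the 10 arrays other than photoconverted replicates 2 and 3, the Pearson correlations were 0.397 to 0.534. LINC00623, a long non-coding RNA, read 3.28, 6.15 and 7.62 in photoconverted replicates 1, 2 and 3 and 2.76 to 3.79 on the other 9 arrays. It thus shared with CLC high readings on the same 2 arrays and an ordinary reading on photoconverted replicate 1. SRM, which encodes spermidine synthase, read 2.47, 4.14 and 3.98 in the photoconverted replicates, and 2.48 to 3.43 elsewhere. CIDEC, a lipid droplet protein gene, read 2.25, 2.71 and 2.72 in the photoconverted replicates, at a low level throughout (percentile 2.16 of gene symbols by its mean). These 5 were picked from 14884 gene symbols for their likeness, which is given without a test.

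**Figure D3:**
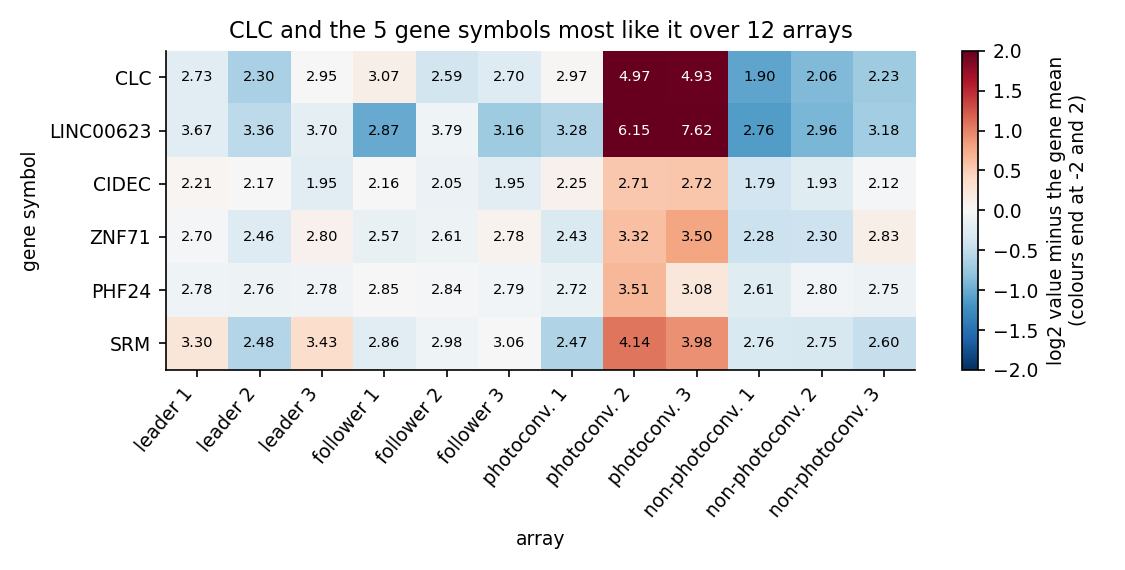
Rows are CLC and the 5 gene symbols most correlated with it, columns are the 12 arrays, numbers are log2 values and colours are the value minus the mean of the gene. All 6 rows have their 2 highest readings on photoconverted replicates 2 and 3, and CLC and LINC00623 differ most from their means there.

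Besides CLC, 2 transcripts related to galectin genes carried a platform symbol although they were not on the list, and they were added after the annotation had been seen. LGALS17A, a transcribed galectin pseudogene near CLC on chromosome 19, read 2.69, 2.62 and 2.12 in photoconverted replicates 1, 2 and 3 and 3.35, 1.92 and 2.14 in the non-photoconverted ones. These arrays overlapped, and the means differed by 0.0065. Between leader and follower cells LGALS17A differed by -0.50 (standard error 0.35, adjusted p = 1.00 from limma). LGALS8-AS1, an antisense RNA at the LGALS8 locus, read 3.11, 3.62 and 3.65 on the leader arrays and 3.31, 2.79 and 2.70 on the follower arrays, which overlapped. The leader mean was higher by 0.53 (standard error 0.24), at an unadjusted p under 0.05 but not past the adjusted test (adjusted p = 1.00 from limma). It gives no reading of LGALS8 itself. CLC, LGALS17A and the placental galectin genes are similar in sequence, and whether the CLC probes also hybridise to the others was not tested.

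Among the genes next to CLC in the RefSeq order of chromosome 19 that had a symbol here, no other was high on the arrays of photoconverted replicates 2 and 3 alone. LEUTX, a homeobox gene and the nearest measured one, read 3.06, 3.31 and 3.96 in the photoconverted replicates against 3.50, 3.28 and 3.55 in the non-photoconverted ones, and the means differed by -0.0045. EID2B differed by 0.27, EID2 by -0.30 and DYRK1B by -0.24, all with overlapping arrays. FBL, which encodes the nucleolar methyltransferase fibrillarin, differed by -1.46, also with overlapping arrays.

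Since CLC marks eosinophils and basophils, other markers of those cells were read on the same arrays. Of 20 listed markers 9 were measured, which were PRG3, EPX, SIGLEC8, CPA3, HDC, GATA1, ALOX5, ALOX15 and ENPP3. All their readings lay between 2.03 and 3.82. No reading of any gene symbol was at 0, and the lowest was 1.13. By its mean CLC stood at the percentile 55.5 of gene symbols, and 7 of the 9 markers stood below it, while GATA1 at 70.3 and ENPP3 at 85.5 stood above. That mean of CLC is raised by photoconverted replicates 2 and 3, and on the other arrays CLC stood at 1.14 to 64.4. No detection threshold was applied, so a percentile does not show that a gene is expressed. The markers were also summed on each array. Their summed log2 value was 25.1 to 25.4 in photoconverted cells and 23.4 to 23.9 in non-photoconverted cells, with no overlap. It was 23.5 to 26.1 in leader cells and 23.5 to 25.7 in follower cells. Photoconverted replicate 1, where CLC was not high, had a sum of 25.1, close to those of replicates 2 and 3. Means were higher in photoconverted cells for 7 of the 9 markers and lower for 2 (7847 and 7037 of all 14884 gene symbols), with a median log2 difference of 0.097 against 0.017 for all gene symbols. For 3 of the 9, EPX, CPA3 and ALOX5, every photoconverted array lay above every non-photoconverted array, which held for 5.10% of all gene symbols. These 3 had the largest differences of the 9 and stood low by mean, at the percentiles 11.4, 24.7 and 23.8. How often sums of 9 other genes separate these groups was not tested.

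EPX, the eosinophil peroxidase, read 2.85, 2.94 and 2.56 in photoconverted replicates 1, 2 and 3 and 2.46, 2.03 and 2.14 in the non-photoconverted ones, and stood at the percentile 11.4 of gene symbols by its mean. CPA3, a carboxypeptidase of mast cells and basophils, had means of 2.86 and 2.30 in these groups. PRG3, an eosinophil granule protein gene, differed by 0.029 and SIGLEC8, a receptor of eosinophils, by -0.014. The 9 markers thus differed by at most 0.57 where CLC differed by 2.22. Their part in the CLC difference was not tested. Means were higher in leader than in follower cells for 7 of the 9 and lower for 2 (7508 and 7376 of all 14884 gene symbols). The median log2 difference was 0.097, against 0.0022 for all gene symbols. CPA3, at -0.59 (standard error 0.18), was 1 marker at an unadjusted p under 0.05, which 4.12% of all gene symbols reached. It fell short after adjustment (adjusted p = 1.00 from limma), as did the other 8. HDC, the enzyme that makes histamine, differed by -0.25 and ENPP3, a surface enzyme of basophils, by 0.19.

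**Figure D4:**
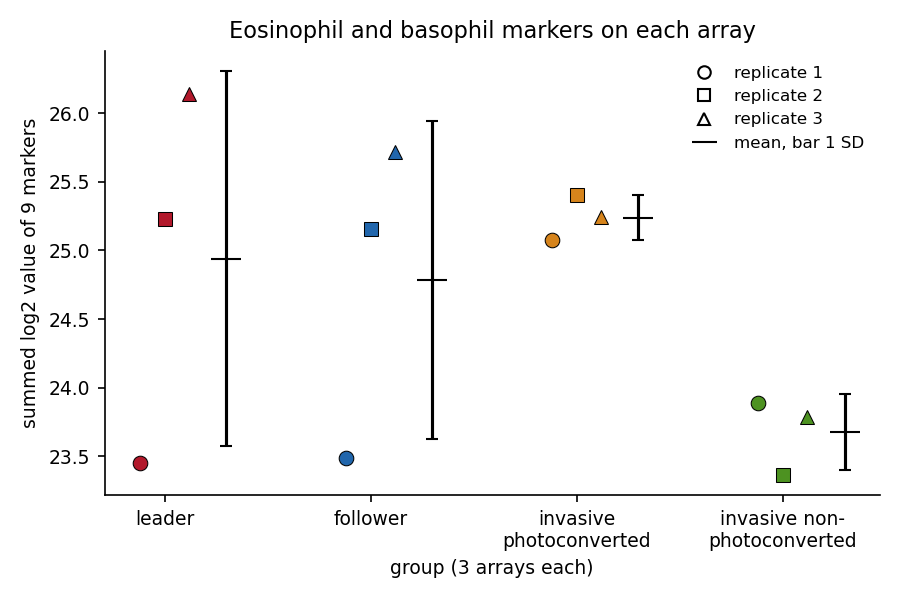
The vertical axis, which does not start at 0, gives the sum of the log2 values of the 9 measured eosinophil and basophil markers on each array, by group, with the mean and a bar of 1 SD (n = 3). The photoconverted arrays lie from 25.1 to 25.4 and the non-photoconverted ones from 23.4 to 23.9, while leader and follower arrays span both ranges.

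Markers of other leukocytes and of the placenta, where CLC relatives are expressed, were read in the same way, and their levels varied widely. Of 13 leukocyte markers 8 were measured, among them CD14, MPO and S100A8, and their sum was 22.6 to 24.5 in photoconverted and 22.6 to 23.9 in non-photoconverted cells. CD68, a lysosomal protein gene that other cell types also express, was the highest of them. It reached 4.97 and stood at the percentile 93.3 of gene symbols by its mean. Of the 8 leukocyte markers, 6 stood below the mean of CLC, which its high photoconverted arrays raise. S100A8, a calcium-binding protein of myeloid cells, was the 1 leukocyte marker with every photoconverted array above every non-photoconverted array, against 5.10% of all gene symbols, and it differed by 0.20. NKG7, a granule protein of cytotoxic lymphocytes, differed by 0.50 between leader and follower cells, LYZ, which encodes lysozyme, by 0.21 and MPO, the myeloperoxidase, by 0.20. Of 18 trophoblast markers 8 were measured, with sums of 20.9 to 24.2 and 22.5 to 23.6. Their means stood from the percentile 4.62 for GCM1 to 89.5 for PSG3, with 5 of the 8 below that mean of CLC. PSG3, a pregnancy-specific glycoprotein gene, differed by 0.69 between leader and follower cells, PAPPA2, a placental protease, by -0.34, CSH2, a placental lactogen, by 0.28 and PSG4 by 0.28. Of the 16 markers 0 passed the adjusted test between leader and follower cells in limma, nor did any reach an unadjusted p under 0.05. That unadjusted threshold was reached by 4.12% of all gene symbols, so a list of this length may hold none.

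Of 25 listed genes for proteins to which galectins bind, the transcripts of 14 were measured. The leader mean was the higher for 5 and the lower for 9 (7508 and 7376 of all gene symbols), with a median log2 difference of -0.065. In limma 0 passed the adjusted test and 0 had an unadjusted p under 0.05, which 4.12% of all gene symbols reached. CD47, a surface glycoprotein that signals to phagocytes, read 6.16, 4.83 and 4.85 in leader replicates and 4.43, 5.68 and 2.43 in follower replicates. The groups overlapped, and the leader mean was higher by 1.10 (standard error 0.76), which did not pass (adjusted p = 1.00 from limma). CD44, the hyaluronan receptor, differed by -0.48 (standard error 0.33). TRIM16, a ubiquitin ligase that works with galectin-3 at damaged lysosomes, differed by -0.30 and HAVCR2, an immune receptor to which galectin-9 binds, by -0.28.

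In the control comparison 12 of these 14 genes averaged lower in photoconverted cells and 2 averaged higher, with a median of -0.16. Those higher were CD6, by 1.05, and CD7, by 0.28. CD6 read 2.38, 2.03 and 5.06 in photoconverted replicates 1, 2 and 3. Over all gene symbols 7037 averaged lower and 7847 higher, with a median of 0.017. The summed log2 value of the 14 averaged 42.1 in photoconverted, 42.4 in leader and 42.3 in follower cells, against 44.4 in non-photoconverted cells. The difference is thus not particular to photoconverted cells. Photoconverted arrays all lay below non-photoconverted arrays for 2 of the 14, LAMP1 and CD44, against 4.65% of all gene symbols. LAMP1, a heavily glycosylated lysosomal membrane protein, had means of 3.22 and 3.58, and CD44 had means of 3.25 and 3.95. Of 27 listed enzymes and chaperones that build the glycans bound by galectins, 1 was measured. That was C1GALT1C1, a chaperone of the core O-glycan galactosyltransferase, whose leader mean was higher than the follower mean by 0.35 (standard error 0.38) and whose photoconverted mean differed from the non-photoconverted mean by -0.38.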

How the data were processed

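RNA from wells of 10 sorted cells was amplified and hybridised to 12 arrays, 3 for each of 4 groups. The authors deposited log2 intensities per probeset, GC adjusted, RMA background corrected, quantile normalized and mean summarized, with RMA and Partek 6.6 named in the submitters' processing notes. A genome build was not given in the sources used here. Of 53617 probesets 16098 carried 1 gene symbol and 0 several in the annotation used, and 37519 had none there. The probeset with the highest mean stood for each of 14884 symbols.

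All 4 groups entered a single linear model (limma 3.58.1, lmFit with eBayes; R 4.3.3), with Benjamini-Hochberg adjustment over all symbols and a threshold of 0.05. The model script was tested on simulated data. Python 3.11.15 and SciPy 1.17.1 gave the exact permutation tests. CLC, the galectins and all gene lists were chosen with earlier results of these data known. Named were the 10 listed symbols, up to 4 genes per list with the smallest unadjusted p between leader and follower cells, and the 5 symbols most correlated with CLC. Other names (the markers of eosinophils, leukocytes and the placenta, LAMP1, VIM, the chromosome 19 neighbours, galectin-related transcripts and those ranked beside CLC) were chosen after their values were seen. Planned comparisons of the 9 other galectins were not run. The methods' permutation procedure leaves out genes that changed between the controls. In a t-test between the controls, made here for that step only, CLC was among the 686 of 14884 gene symbols left out. That is the comparison that chose CLC, so the t-test is no support for its difference. The procedure was not run for CLC and gave no call.

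Alternatives were a replicate block, median centring, cyclic loess, a filter on level, all probesets and the mean of the probesets of a symbol. Further ones were array weights, other eBayes settings, fewer arrays, an unpaired t-test and leaving out each array. The methods name such a t-test for comparing conditions, and it is not their permutation procedure for the arrays. The same settings, except the t-test and fewer arrays, were applied to CLC in leader and follower cells against each control group after the data had been seen.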

Additional observations from a re-analysis of the deposited data

How the results depend on the processing

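The difference of CLC between leader and follower cells kept its sign and stayed short of the threshold in 20 of 22 alternatives. Many of these could not move the difference from -0.12. They were the control arrays left out and the settings that leave the group means of CLC unchanged. The difference turned positive without leader replicate 2 (0.056) and without follower replicate 1 (0.017), and the cause was not tested. Leaving out arrays 1 at a time spread it from -0.27 to 0.056. Other settings gave -0.19 to -0.12, and with a replicate block it was -0.12. CLC was never at an unadjusted p under 0.05 between these groups. The count of gene symbols past the adjusted threshold between leader and follower cells was 0 to 1 when single arrays were left out, with 1 without leader replicate 3 and 0 otherwise. The difference of CLC between photoconverted and non-photoconverted cells was 1.88 to 2.88 when single arrays were left out and 2.20 to 2.26 in the other settings. In all of these settings CLC stayed higher in photoconverted cells. Leaving out a leader or follower array could not change this difference, nor could settings that leave the group means of CLC unchanged. Nothing in the labels ties the replicate numbers to a shared batch, and the block changed no call. Deviations from the group means of same-numbered arrays correlated at -0.020 to 0.085 between leader and follower cells, at 0.042 to 0.17 between the photoconverted and non-photoconverted groups and at -0.071 to 0.22 over all 18 such pairs. Differently numbered arrays correlated at -0.14 to 0.14 between leader and follower cells and at -0.12 to 0.054 between the photoconverted and non-photoconverted groups. Whether same-numbered arrays share a source was not tested. The other settings for the other galectins and the permutation procedure gave no value here. With 3 arrays per group, a change of CLC of less than about a log2 unit was not detectable in the fit over all arrays, even at an unadjusted p under 0.05. The adjusted threshold asks for a larger change, whose size was not worked out.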
